A study of Homo sapiens with 4 samples.

Results

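Genes of cholesterol synthesis and its control, 8 in number, were followed across all treatments: HMGCS1, SQLE, IDI1, FDFT1, LSS and DHCR7, which encode enzymes of the pathway, and INSIG1 and SREBF2, which belong to the system that controls it. They were chosen by symbol from a list, 8 of the 23284 gene symbols in the table, by a rule that uses no measured value, though the list was drawn up with earlier results of these data known. HEK-293, an established cell line from human embryonic kidney, was transfected for 48 h with 10 nM of a small interfering RNA (siRNA), and mRNA was sequenced from 1 library per siRNA. The siRNAs si4 and si5 target ZSCAN5A, si1 targets ZSCAN5B, and the control was a scrambled siRNA. ZSCAN5A and ZSCAN5B are related zinc finger genes, and the comparison asks which genes differ when either is knocked down. All 4 cultures were the same unmodified line and received the same dose and transfection reagent. Per the paper, si4, si5 and si1 came from Qiagen and the scrambled control from Ambion. Supplier thus cannot be told apart from the contrast of siRNA to control.

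Cholesterol is built from acetyl-CoA through mevalonate, farnesyl diphosphate and squalene. When sterols are scarce, SCAP carries the transcription factor SREBP2, the product of SREBF2, from the endoplasmic reticulum to the Golgi, where proteases release its active part, and this part switches on the genes of the synthesis enzymes and INSIG1. When sterols are plentiful, INSIG1 holds SCAP and SREBP2 back in the endoplasmic reticulum, so INSIG1 is both a target of the pathway and a brake on it.

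The siRNA target sequences are shown because si4 and si5 share a target gene and yet differed in several of the genes below. They were matched to the minus strand of chromosome 19 of GRCh37, that of si4 from 56733332 to 56733352 and that of si5 from 56733307 to 56733327, both in coding sequence of ZSCAN5A, and that of si1 from 56701591 to 56701611, in coding sequence of ZSCAN5B. Capitals mark the 7 bases that pair with the seed, guide bases 2 to 8.
si4: cgagaagaggtttACGTGTAa
si5: aagctagtcatccACAAGAGa
si1: acgtgtgcaataaATCATTTa
The si4 seed site occurred in 3.37% of 12003 annotated 3′ UTRs of expressed genes, that of si5 in 12% and that of si1 in 23.5%. None of the 8 genes held the si4 site. LSS held 1 site for si5, and HMGCS1, IDI1 and FDFT1 each held 1 for si1, while INSIG1, SREBF2, SQLE and DHCR7 held none for any of the siRNAs.

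Promoter sequence, 250 bases before each start from RefSeq on GRCh38.p14, was at hand for 6 of the 8 genes. It is shown because INSIG1 and SREBF2, unlike the enzymes, were highest in the control, SREBF2 by little. Whether the motifs bear on this was not tested. The motifs searched, on both strands, were a sterol regulatory element (TCACNCCAC), the NF-Y box (CCAAT), the Sp1 box (GGGCGG) and the E-box (CACGTG). No match of one motif overlapped a match of another in the printed windows. Windows from 180 to 41 bases before the start of 4 genes are printed 5′ to 3′ on the gene's strand, with capitals for the sterol element, the NF-Y box (ATTGG where it lies on the other strand) and the E-box. They lie at chr7:155297698-155297837 (plus strand) for INSIG1, chr22:41832925-41833064 (plus) for SREBF2, chr5:43313453-43313592 (minus) for HMGCS1 and chr21:46228815-46228954 (minus) for LSS.
INSIG1: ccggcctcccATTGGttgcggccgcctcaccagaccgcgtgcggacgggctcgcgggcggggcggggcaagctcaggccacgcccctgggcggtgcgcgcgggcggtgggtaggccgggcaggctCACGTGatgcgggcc
SREBF2: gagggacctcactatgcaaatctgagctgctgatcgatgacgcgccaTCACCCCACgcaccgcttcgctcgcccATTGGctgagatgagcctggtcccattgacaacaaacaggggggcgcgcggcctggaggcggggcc
HMGCS1: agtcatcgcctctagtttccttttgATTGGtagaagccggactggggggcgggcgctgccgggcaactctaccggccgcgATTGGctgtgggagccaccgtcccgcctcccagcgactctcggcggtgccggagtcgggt
LSS: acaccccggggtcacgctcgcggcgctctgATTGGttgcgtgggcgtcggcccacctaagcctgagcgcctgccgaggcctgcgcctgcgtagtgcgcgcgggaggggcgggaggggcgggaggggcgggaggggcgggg
The 6 genes have 10 listed starts, and an NF-Y box stood before 7 of them, with at least 1 in each gene, against 32.0% of all 35116 promoters. The sterol element in these letters was found for SREBF2 alone of the 6, against 0.883% of promoters, and the E-box for INSIG1 alone, against 6.34%. An Sp1 box stood before 9 of the 10 starts, against 42.6%. These are matches of letters and not measured binding sites.

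All values are FPKM, fragments per kilobase of transcript scaled to library depth, so levels can be compared between genes. The steps between low FPKM values placed the control library at about 53700000 fragments. They placed si4, si5 and si1 at 1.09, 1.54 and 1.02 times that depth. The paper gives a narrower range of reads per sample, and the difference from these estimates was not resolved. ZSCAN5A stood at 30.2% of its control level with si4 and 29.5% with si5. ZSCAN5B stood at 105% of control with si1, 36.6% with si4 and 73.4% with si5, at under 0.1 FPKM in every library, so si1 is called here the library labelled ZSCAN5B knockdown. At such low levels these percentages are no measure of the knockdown. By qRT-PCR the paper reported ZSCAN5B transcripts reduced with si1 and somewhat raised with si4. Its measurements of the related gene ZSCAN5D were also below the control with si4, si5 and, less so, si1. It also reported less ZSCAN5B protein after knockdown of this gene. Of 8 genes typical of HEK-293, 7 reached 1 FPKM in every library, and of 8 markers of other cell types 7 stayed under 1 FPKM in every library. The summed level of the latter ran from 1.18 to 2.02 FPKM. With 1 library per siRNA no difference below has a replicate check, and the nearest thing to a replicate is the pair si4 and si5, which differ in sequence. A gene counts as past the fold limit when it differs by more than 1.5-fold and reaches 1 FPKM in a library of the comparison. In bulk RNA, fewer cells that express a gene and less RNA per cell cannot be told apart.

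All 8 genes were well expressed in the scrambled control. INSIG1 had the highest level at 196 FPKM, followed by HMGCS1 at 165, IDI1 at 102, FDFT1 at 101, SQLE at 52.9, SREBF2 at 43.3, LSS at 29.9 and DHCR7 at 29.7 FPKM. IDI1 and FDFT1 were as good as level with each other, and so were LSS and DHCR7. INSIG1 ranked 289 of the 12858 rows at 1 FPKM or more in the control, and DHCR7 was still above 80.2% of them. In hg19 coordinates of the deposited table HMGCS1 lies on chromosome 5 from 43289493 to 43313595, SQLE on chromosome 8 from 126010720 to 126034525, IDI1 on chromosome 10 from 1085964 to 1095061 and FDFT1 on chromosome 8 from 11660190 to 11696818. INSIG1 lies on chromosome 7 from 155089486 to 155101945, LSS on chromosome 21 from 47608360 to 47648738, DHCR7 on chromosome 11 from 71145457 to 71159477 and SREBF2 on chromosome 22 from 42229106 to 42302375. The order of the lower 4 genes was not the same in all libraries, since SQLE was above SREBF2 in each but LSS was below DHCR7 with si5.

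**Figure D1:**
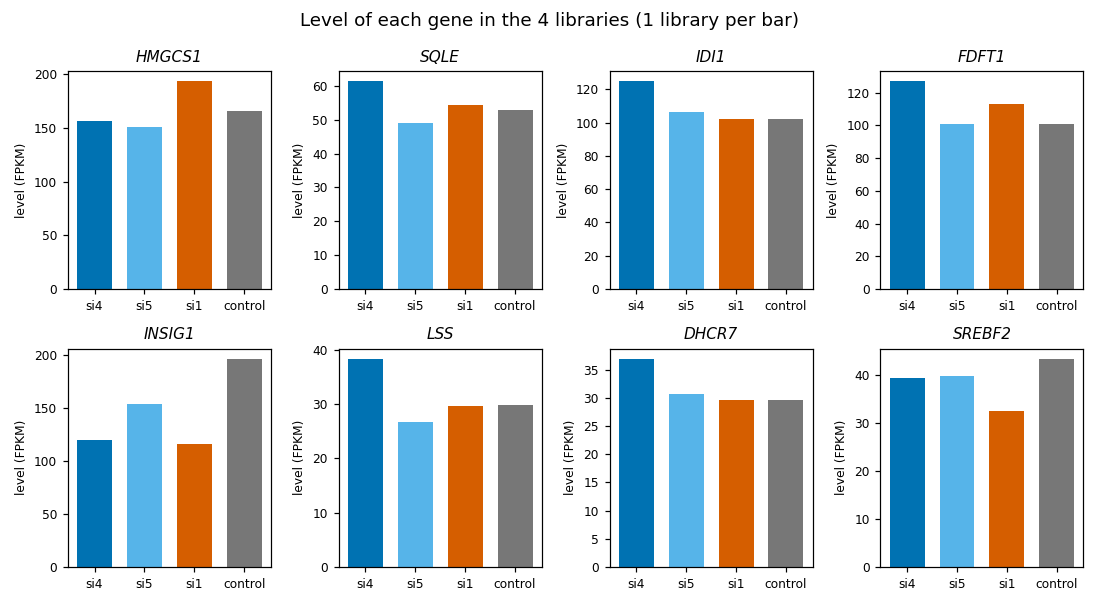
Level in FPKM (vertical axis, from 0) of each of the 8 genes in the libraries of si4, si5, si1 and the scrambled control, 1 bar per library with no replicates. The control bar is the tallest for INSIG1 and SREBF2, the si4 bar for SQLE, IDI1, FDFT1, LSS and DHCR7, and the si1 bar for HMGCS1.

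INSIG1 differed most from the control of the 8 genes. It stood at 196 FPKM in the control against 120 (si4), 154 (si5) and 116 in the library labelled ZSCAN5B knockdown. All 3 siRNA libraries were below the control, and si5 lay between the control and the other two. The log2 ratio to the control was −0.71 for si4, −0.35 for si5 and −0.76 for si1, with exact 95% counting intervals of −0.73 to −0.68, −0.37 to −0.33 and −0.79 to −0.73. These intervals, from approximate fragment counts, cover counting error only. For the mean of si4 and si5 the log2 ratio was −0.52, a level 1.43-fold below the control. The gene lay past the fold limit with si1 (1.69-fold) and si4 (1.63-fold), and not with si5 (1.28-fold). Only 1.21% of 12921 genes had a lower ratio with si1, and 4.39% of 12993 had a lower one with the ZSCAN5A siRNAs. The gene overlaps no other annotated gene.

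SREBF2, which encodes SREBP2 itself, was also highest in the control, by less. Its level was 43.3 FPKM in the control against 39.3 (si4), 39.8 (si5) and 32.4 in the library labelled ZSCAN5B knockdown. The ZSCAN5A siRNAs were within 0.02 of each other on the log2 scale, and si1 stood below both. Against the control the log2 ratios were −0.14 for si4, −0.12 for si5 and −0.42 for si1, and 8.05% of genes had a lower ratio than SREBF2 with si1. After subtracting the median ratio of genes of like transcript length and GC content, the ratio for the ZSCAN5A siRNAs turned from −0.13 to 0.07 and that for si1 was −0.22, so the small difference with si4 and si5 depended on that choice. SREBF2 hosts the microRNA gene MIR33A and overlaps SREBF2-AS1 on the other strand.

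The control library lay above all 3 siRNA libraries for 2 of the 8 genes, INSIG1 and SREBF2, against 36.2% of all 12983 genes compared, and below all 3 for 2, IDI1 and FDFT1, against 30.1%. Either share is near that of all genes. With a margin of at least 0.32 on the log2 scale in each library INSIG1 alone of the 8 was above, against 6.09% of all genes. The control library itself differed from the others in its summed FPKM, 488036 against 537181 to 546239, and the part of this in the ratios was not tested.

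For the enzymes, the picture was another. HMGCS1, which makes HMG-CoA and stands at the entry to the mevalonate pathway, was at 165 FPKM in the control against 156 (si4), 151 (si5) and 193 in the library labelled ZSCAN5B knockdown. Both ZSCAN5A siRNAs were a little under the control and si1 was above it. The log2 ratio was −0.11 for the ZSCAN5A siRNAs and 0.23 for si1, and between them it was −0.33, with si4 and si5 0.05 apart. No more than 3.34% of 12888 genes had a lower ratio of the ZSCAN5A siRNAs to si1.

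IDI1, the isomerase that interconverts the building blocks of farnesyl diphosphate, was at 102 FPKM in the control against 125 (si4), 106 (si5) and 102 (si1). The si4 library stood above the rest, and si1 and the control differed by a log2 ratio of 0.00 (counting interval −0.03 to 0.03). IDI1 has 3 annotated pseudogenes, so its reads are less surely its own. It also overlaps IDI2-AS1 on the other strand, and HMGCS1, FDFT1, LSS and DHCR7 likewise overlap annotated genes on the other strand.

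FDFT1, squalene synthase, the first enzyme committed to sterols, was at 101 FPKM in the control against 127 (si4), 101 (si5) and 113 (si1). Its log2 ratio to the control was 0.33 for si4, 0.00 for si5 and 0.17 for si1. SQLE, which oxidises squalene, stood at 52.9 FPKM in the control against 61.4 (si4), 49.0 (si5) and 54.5 (si1). It was thus above the control with si4 and below it with si5, at log2 ratios of 0.22 and −0.11.

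LSS, which closes the sterol rings to form lanosterol, was at 29.9 FPKM in the control against 38.3 (si4), 26.8 (si5) and 29.6 (si1). This was the widest gap of any of the 8 genes between the ZSCAN5A siRNAs, a log2 ratio of 0.52 (counting interval 0.48 to 0.56), and 98.6% of 12800 genes had a lower ratio of si4 to si5. DHCR7, which reduces 7-dehydrocholesterol to cholesterol, was at 29.7 FPKM in the control against 36.9 (si4), 30.7 (si5) and 29.6 (si1). Here si4 again stood apart, while si5 and si1 had counting intervals against the control that include 0 (−0.01 to 0.10 and −0.06 to 0.06).

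**Figure D2:**
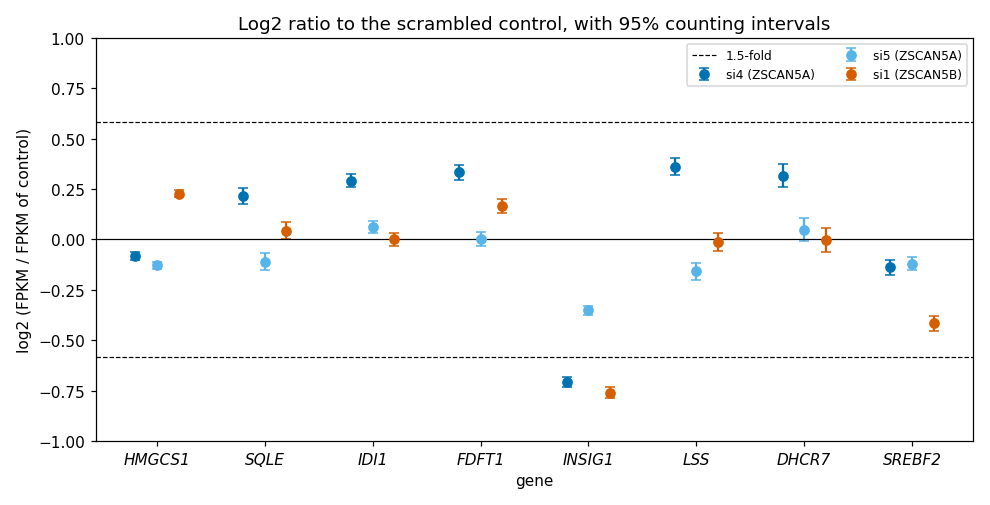
Log2 ratio of the FPKM with each siRNA to the FPKM of the scrambled control (vertical axis) for the 8 genes (horizontal axis), 1 library per point, with exact 95% counting intervals and dashed lines at 1.5-fold. Only INSIG1 with si4 and si1 lies outside the dashed lines, and 5 of the 6 enzymes are highest with si4.

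Set against the fold limit, none of the 8 genes was past it for the ZSCAN5A siRNAs together, where 492 of 12993 genes were (3.79%, and 3.11% in the lower direction alone). In the library labelled ZSCAN5B knockdown 1 of 8 was, INSIG1, against 4.01% of all genes and 3.17% lower. With si4 alone 1 of 8 was, again INSIG1, against 6.36%, and with si5 alone none, against 3.54%. The median log2 ratio of the 8 was 0.09 for the ZSCAN5A siRNAs and −0.00 for si1, beside medians over all genes of −0.02 and −0.01. In limma on log2(FPKM + 1), with si4 and si5 against the control, INSIG1 had the lowest p of the 8 and an adjusted p of 0.395 (Benjamini-Hochberg over 13044 genes), and the others had adjusted p-values from 0.574 to 0.904.

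The difference between si4 and si5 ran the same way in all 6 of these enzymes, which were higher with si4. The si4 to si5 log2 ratio was 0.05 for HMGCS1, 0.23 for IDI1, 0.27 for DHCR7, 0.33 for SQLE and FDFT1 and 0.52 for LSS, while it was −0.36 for INSIG1 and −0.02 for SREBF2. Over all genes 54.4% were higher with si4 than with si5 and the median was 0.02. Of the lists described below, 9 of 11 fatty acid genes and 5 of 7 degradation genes were also higher with si4. Among uptake and transport genes 4 of 12 were, and among SREBP processing genes 1 of 7. The direction was thus not particular to these enzymes. None of the 8 was past the fold limit between them, against 2.53% of all genes. The si4 library was the highest of all 4 for 5 of the 8 genes, against 25.7%. The si5 library was also estimated as the deeper of the pair, and the part of depth in this difference was not tested.

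The other enzymes of the pathway, taken from a list, gave a similar but less uniform picture. Of all 21 enzymes from acetyl-CoA to cholesterol, none was past the fold limit for the ZSCAN5A siRNAs or for si1, against 3.79% and 4.01% of all genes. Their median log2 ratio was 0.16 for si4, −0.05 for si5 and 0.01 for si1. Against the control, 16 of 21 were higher with si4 (47.9% of all genes were), and si4 was the highest library for 14 of 21, against 25.7%. These figures include the 6 enzymes described above. For the 15 others alone the median log2 ratio with si4 was 0.07, against 0.30 for those 6. Of the 15, 11 were higher with si4 than in the control, and si4 was the highest library for 9. Of the mevalonate arm, ACAT2, which makes acetoacetyl-CoA, had 108 FPKM with si4 against 82.0, 87.0 and 78.2 with si5, si1 and the control. MVD, which makes isopentenyl diphosphate and is named after its values were seen, had a si4 to control log2 ratio of 0.38. MVD was also the gene most like LSS among 8645 genes at 5 FPKM or more, at a distance of 0.03 over the log2 ratios of the 3 siRNA libraries. This search left out the genes described first. For none of the others of these was an enzyme of the pathway among the 5 nearest genes.

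There were exceptions among these enzymes. FDPS, which makes farnesyl diphosphate, had 119 FPKM with si4 against 174 with si5, 173 with si1 and 169 in the control. CYP51A1, which removes the 14-alpha methyl group of lanosterol, had 29.1 FPKM with si4 and 40.4, 43.2 and 42.9 in the other libraries. Both were thus lowest with si4, where most enzymes were highest. FDPS has 8 and CYP51A1 has 3 annotated pseudogenes, with which reads could be shared, and the part of this was not tested. EBP, a sterol isomerase, was low with si5 alone, at 49.0 FPKM against 74.3, 69.5 and 71.7 with si4, si1 and the control. NSDHL, a demethylation enzyme named after its values were seen, was highest in the library labelled ZSCAN5B knockdown, at 60.0 FPKM against 44.2 in the control.

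**Figure D3:**
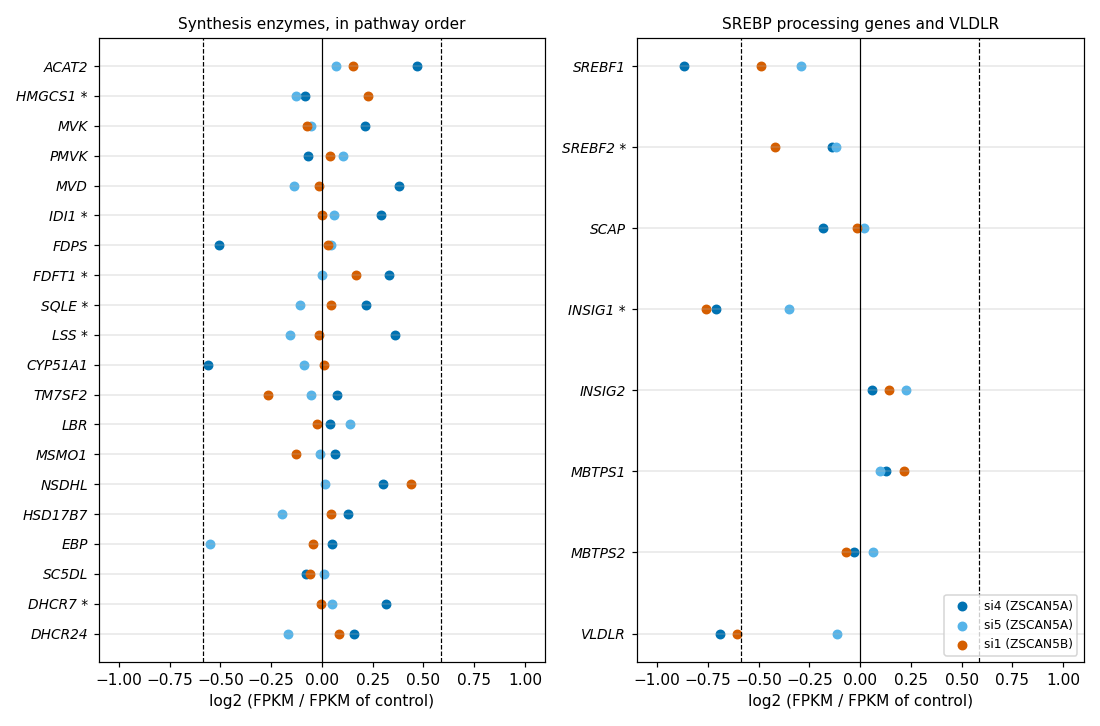
Log2 ratio of FPKM to the scrambled control (horizontal axis) with si4, si5 and si1 for 20 of the 21 synthesis enzymes in pathway order (left) and for the SREBP processing genes with VLDLR (right), 1 library per point. Asterisks mark the 8 genes described and dashed lines 1.5-fold. Most si4 points lie to the right of 0 on the left panel, and INSIG1, SREBF1 and VLDLR lie to the left of 0 in all 3 libraries on the right panel.

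Among the genes that process SREBPs, 3 of 7 were highest in the control, against 36.2% of all genes, and si4 was highest for none. SREBF1, which encodes the related SREBP1, had 7.58 FPKM in the control against 4.16 (si4), 6.20 (si5) and 5.40 (si1). Its log2 ratio was −0.87 with si4, past the fold limit, −0.29 with si5 and −0.49 with si1, in the same order of si4 and si5 as for INSIG1. SCAP, the carrier of SREBPs, had log2 ratios from −0.18 to 0.02, and INSIG2, the second brake protein, had log2 ratios of 0.14 for both comparisons. MBTPS1, the protease that makes the first cut, had log2 ratios of 0.11 and 0.22. INSIG1 was thus the only brake gene of the pair that was below the control.

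Among the genes of uptake and transport, VLDLR, a lipoprotein receptor, had 18.1 FPKM in the control against 11.2 (si4), 16.7 (si5) and 11.9 (si1). All siRNA libraries were below the control, and si5 was the nearest to it, as for INSIG1. Its log2 ratio was −0.37 for the ZSCAN5A siRNAs and −0.60 for si1, past the fold limit for si1, and it was −0.69 for si4 taken alone. NPC2, which moves cholesterol out of lysosomes, and STARD4, which carries it between membranes, had the highest ratios of this list for the ZSCAN5A siRNAs, 0.14 and 0.05.

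Sterol-triggered degradation, which removes the SQLE protein among others, gave 1 of 7 genes past the limit for the ZSCAN5A siRNAs, against 3.79% of all genes. FAF2, an adaptor in this process, had 21.1 FPKM in the control against 15.2 (si4), 11.1 (si5) and 18.8 (si1). SYVN1, a ubiquitin ligase, had log2 ratios of −0.51 and −0.56 for the ZSCAN5A siRNAs and si1, and UBE2G2 and VCP had ratios from 0.11 to 0.23. Of the LXR targets and efflux genes, 0 of 7 were past the limit in either comparison, against 3.79% and 4.01% of all genes. With si4 alone 2 of 7 were, ABCG1 and SREBF1, against 6.36%. Their median was −0.19 in both comparisons, with a range over the alternatives of −0.22 to −0.07 for the ZSCAN5A siRNAs and −0.19 to −0.12 for si1, nearest to 0 with the length and GC correction and with a pseudocount of 1. ABCG1, an efflux pump, was near the limit of 1 FPKM, at 1.33 in the control against 0.75 (si4), 1.17 (si5) and 1.15 (si1). Its log2 ratio for the ZSCAN5A siRNAs was −0.47, which rested on si4 (−0.83) more than si5 (−0.18). NR1H3 and LPCAT3 had 0.01 and −0.01.

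The SREBP1 targets of fatty acid synthesis had 0 of 11 genes past the limit in either comparison, against 3.79% and 4.01% of all genes. FASN, the fatty acid synthase, had 57.6 FPKM in the control against 42.1 (si4), 38.7 (si5) and 42.7 (si1), and was thus lower in all 3. ACSL3 had a ratio of −0.24 for the ZSCAN5A siRNAs, and ELOVL6 and ACACA had 0.11 and 0.08. In the other branches that use isoprenoids, RABGGTB, a subunit of the enzyme that prenylates Rab proteins, was past the limit in both comparisons with log2 ratios of 0.64 and 0.64. DOLK, FNTB and RABGGTA had ratios of 0.25, −0.28 and −0.25 for the ZSCAN5A siRNAs. Of 10 reference genes none was, although RPLP0 and GAPDH had ratios of 0.32 and 0.25 and ACTB and YWHAZ −0.26 and −0.21, a range wider than that of the 6 enzymes, −0.11 to 0.19.

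**Figure D4:**
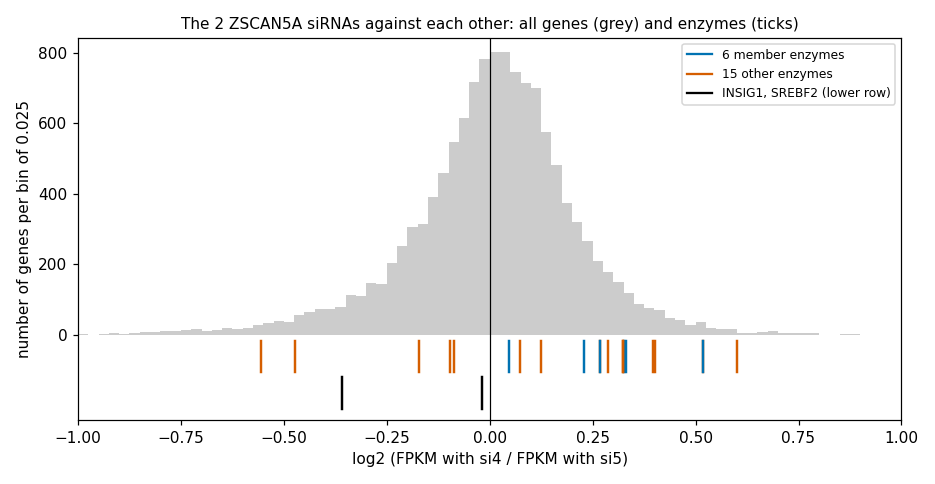
Number of genes (vertical axis, bins of 0.025) by log2 ratio of FPKM with si4 to FPKM with si5 (horizontal axis, 89 genes beyond 1 in size not drawn), with ticks under the histogram for 6 enzymes described here, the 15 other enzymes, and INSIG1 and SREBF2. The 6 enzymes lie from 0.05 to 0.52, FDPS and CYP51A1 are the leftmost of the other enzymes, and INSIG1 lies at −0.36.

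The profile of the 8 genes as a whole, their median log2 ratio to the control, was 0.25 for si4, −0.11 for si5 and −0.00 for si1. The genes nearest to it were PDLIM7, VIM, SMG5, LOC100506233 and FGFR1OP, at distances of 0.02 to 0.05 over the 3 ratios. None of them is in the pathway or reference lists used here, while VIM is among the genes typical of HEK-293.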

How the data were processed

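HEK-293 cells treated with si4, si5, si1 or a scrambled control were compared, 1 mRNA library each, sequenced for 101 cycles. Labels and the study's methods name different stranded library kits. Per the labels, the authors' processing notes name CASAVA 1.8.2, Trimmomatic 0.30, TopHat2 2.1.0, Cufflinks 2.2.1 and genome build hg19, and the authors deposited FPKM values per gene, not counts. The 24934 rows and 0 further columns of values were checked.

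FPKM values were used as deposited, without a pseudocount. The mean of si4 and si5, or si1, was divided by the control, and genes past 1.5-fold with at least 1 FPKM in a library and no side at 0 were counted. The study's own test was not repeated. Library depth was estimated from low FPKM values in whole-number proportions (70.2% of 1745 genes under 0.1 FPKM, numbers up to 40, tolerance 0.05%). Clopper-Pearson 95% intervals used fragment counts approximated from depth and transcript length, and read copies without molecular identifiers are not independent. The GENCODE annotation lifted to GRCh37 matched 95.1% of expressed symbols.

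The genes and lists were chosen with earlier results of these data known. Besides the 8 genes, the text names the 2 highest and 2 lowest ratios for the ZSCAN5A siRNAs in each list, genes past the limit, and the 5 genes nearest to the median profile; others are marked. Because si4 and si5 are different siRNAs with 1 library each, limma's p-values measure only the spread between these libraries. That spread mixes siRNA sequence, culture and library preparation, and part of it may be technical. Python 3.11.15, NumPy 2.4.6, pandas 2.3.3, SciPy 1.17.1, matplotlib 3.10.9, R 4.3.3 and limma 3.58.1 were used, and the fold rule, depth estimate and limma were tested on simulated data. Alternatives were pseudocounts of 0.1 and 1, other expression and fold limits, 2 scalings, each ZSCAN5A siRNA alone and limma; a length and GC correction was added after seeing the data. Some genes of the lists are not reported here by name.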

Additional observations from a re-analysis of the deposited data

Results flagged for a closer look

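In 2 genes both ZSCAN5A siRNAs stood on one side of the control and si1 on the other, and this difference was not tested. The share of all genes with this pattern was not counted, so it cannot be called particular to these genes. HMGCS1 was below the control with si4 and si5 (log2 ratios of −0.08 and −0.13) and above it in the library labelled ZSCAN5B knockdown (0.23). DHCR7 was above the control with si4 and si5 (0.32 and 0.05), and its ratio with si1 was −0.0032, with a counting interval of −0.06 to 0.06 that includes 0. The sign of this last value turned under both scalings and the length and GC correction, to 0.0065, 0.0082 and 0.012.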

How the results depend on the processing

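For log2 ratios and medians, the spread used to judge a moved value was the SD between si4 and si5. A count was judged to have moved when it changed by more than 1.5-fold or, where either count was 0, at all. For the ZSCAN5A siRNAs, the count of genes past the limit moved from 492 to 205 at 5 FPKM or more, 2512 without an expression limit, 2404 at a log2 limit of 0.32, 73 at 2-fold, 199 with a pseudocount of 1 and 10 with limma (adjusted p at most 0.05; 1618 genes had an unadjusted p under 0.05), and was 457 to 822 with either siRNA alone. For si1 it moved from 518 to 252, 2364, 2522, 67 and 210 under the same settings without limma. Of the 8 genes, 0 were past the limit for the ZSCAN5A siRNAs, 1 at 0.32, and 0 to 1 with either siRNA alone. Limma called 0 of the 8, with 1 at an unadjusted p under 0.05. For si1, 1 of the 8 was past the limit, 2 at 0.32 and 0 at 2-fold. INSIG1 kept its sign in 8 of 8 alternatives for the ZSCAN5A siRNAs (−0.71 to −0.35) and 5 of 5 for si1. SQLE and LSS turned sign with si5 alone, to −0.11 and −0.16. Scaling changed neither the 14 enzymes highest with si4 nor the sign of any of the 8 genes for the ZSCAN5A siRNAs. The median over all genes for these siRNAs turned from −0.02 to 8.25e-05 and 0.0053 under the scalings. The length and GC correction took LSS with si1 from −0.01 to 0.18 and SREBF1 from −0.55 to −0.28 for the ZSCAN5A siRNAs. No paired analysis was possible because the groups share fewer than 2 replicate numbers. The spread between cultures is unknown without replicates, and the effect of depth on the ratios was not tested.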
